A study of Mus musculus with 48 samples.

Results

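The multidrug efflux pumps described here are 6 members of the ATP-binding cassette (ABC) transporter family, Abcb1a, Abcb1b, Abcg2, Abcc1, Abcc2 and Abcc4, measured by RNA sequencing of whole jejunum, the stretch of small intestine between duodenum and ileum. They were taken as the rows of the count table whose Ensembl IDs carry these symbols in the mouse mm10 annotation, and all 6 were found among the 55401 gene IDs of the table. The 12 groups were 2 genotypes, each sampled at 6 circadian times from CT1 to CT21 (hours of the animals' own cycle, CT1, CT5, CT9, CT13, CT17, CT21), all in constant darkness. Controls carried floxed Bmal1 alleles (bmal1fl/fl), and the knockout is written Bmal1iec-/-. There were 4 libraries in each group but 3 for knockout CT9, whose remaining library was not analysed here. In the study the loss of the clock factor BMAL1 is aimed at the intestinal epithelium, whereas the samples hold all cells of the tissue, and the sources used here do not give the Cre driver or the age of the mice. Whether the libraries of a group come from different mice is not stated, so the p-values reflect the spread among these samples, part of which may be technical.

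Efflux pumps use ATP to move drugs, toxins and conjugated metabolites out of cells, and many of them accept a broad range of molecules. In the small intestine P-glycoprotein, the breast cancer resistance protein and MRP2 sit in the brush border of villus enterocytes and return swallowed compounds to the gut lumen, which limits how much of an oral drug is absorbed. In mice P-glycoprotein is encoded by a pair of genes, Abcb1a, the main intestinal form, and Abcb1b, which is more prominent in adrenal gland, kidney and the pregnant uterus. Abcg2 encodes the breast cancer resistance protein and Abcc2 encodes MRP2. Abcc1 encodes MRP1, a broadly expressed exporter of glutathione conjugates that sits in the basolateral membrane of epithelial cells, and Abcc4 encodes MRP4, an exporter of cyclic nucleotides and organic anions.

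As a check on the tissue, villus enterocyte markers were abundant in every library. They do not tell jejunum from other parts of the small intestine. The list holds 10 genes, and its summed level, in CPM (counts scaled to library size), was 22772 to 39719 in control libraries. In knockout libraries the sum was 24886 to 42048 CPM. Over all times 3 of these 10 genes were higher in the knockout, 2 were lower and 5 did not pass the test. Among all 15646 genes tested 23.3% passed. The largest log2 fold changes that passed were those of Sis (0.35, SE 0.12), Alpi (0.32, SE 0.06) and Fabp2 (−0.31, SE 0.07). Total counts ranged from 4337218 to 6914138 per library. The mean level of Arntl, the gene symbol of Bmal1, ran from 10.4 to 78.4 CPM over the 6 control times and from 27.3 to 31.4 CPM over the 6 knockout times, and a count over the whole gene does not show which exons were present. In 5 libraries (replicates 1, 2 and 3 of knockout CT1, replicate 4 of knockout CT21 and replicate 1 of control CT21) genes departed from their median more widely than elsewhere. That spread, the interquartile range of log2 departures, reached 0.5995 to 1.12 there against 0.279 to 0.476 for the other 42, and long genes read lower in these 5. Results that change without them are given with both values.

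All 6 pumps passed the filter on low counts, but their depths differed widely. Abcc2, on chromosome 19 (43782192 to 43840740, mm10), had 447 to 6928 counts per library, Abcb1a, on chromosome 5 (8660077 to 8748575), had 342 to 4574, and Abcg2, on chromosome 6 (58584523 to 58695676), had 507 to 1945. Abcc1, on chromosome 16 (14361558 to 14475737), had 39 to 133 counts per library, and Abcc4, on the minus strand of chromosome 14 (118482692 to 118706219), had 15 to 70. Abcb1b, which follows Abcb1a on chromosome 5 (8798147 to 8866315), had 2 to 21 counts per library and reached 10 in 12 of the 47 libraries, so its values carry the widest counting error. All are protein-coding genes, and their counts are sums over exons.

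Levels of different genes are comparable only per length, here as CPM per kb of the gene's merged exons. On that scale Abcc2 (64.2) and Abcb1a (62.5) led in control, averaged over the 6 times, followed by Abcg2 (19.4), Abcc4 (1.14), Abcc1 (1.09) and Abcb1b (0.185). In knockout the order began with Abcc2 (35.2), Abcg2 (33.1) and Abcb1a (29.7), and Abcc4 (1.19), Abcc1 (0.996) and Abcb1b (0.129) stayed at the low end. The 3 brush border pumps thus made up nearly all of the summed pump transcript in both genotypes, and they are the members on which most results turn.

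The first 250 bases upstream of annotated start sites are shown for these 3 pumps because their transcripts varied over the day, as described further on. The sequences come from RefSeq (build GRCm38.p6), which lists 8 start sites for 5 of the 6 members (all but Abcc1). They are printed 5′ to 3′ on the coding strand, without bases that lie in an annotated exon, and capitals mark motif matches.
Abcb1a, chr5:8566841-8567090: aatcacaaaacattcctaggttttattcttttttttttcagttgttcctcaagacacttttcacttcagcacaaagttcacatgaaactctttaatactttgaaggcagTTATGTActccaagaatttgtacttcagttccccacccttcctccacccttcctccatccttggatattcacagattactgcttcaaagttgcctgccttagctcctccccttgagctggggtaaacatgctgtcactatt
Abcc2, chr19:43782058-43782191: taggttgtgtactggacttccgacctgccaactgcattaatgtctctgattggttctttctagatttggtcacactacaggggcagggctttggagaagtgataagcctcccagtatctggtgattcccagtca
Abcg2, second start, chr6:58596422-58596670: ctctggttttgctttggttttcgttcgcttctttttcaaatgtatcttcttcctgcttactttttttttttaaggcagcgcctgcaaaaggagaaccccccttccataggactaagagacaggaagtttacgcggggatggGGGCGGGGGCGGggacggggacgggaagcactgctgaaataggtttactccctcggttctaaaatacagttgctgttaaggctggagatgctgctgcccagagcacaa
Abcg2, the third start, chr6:58640296-58640545: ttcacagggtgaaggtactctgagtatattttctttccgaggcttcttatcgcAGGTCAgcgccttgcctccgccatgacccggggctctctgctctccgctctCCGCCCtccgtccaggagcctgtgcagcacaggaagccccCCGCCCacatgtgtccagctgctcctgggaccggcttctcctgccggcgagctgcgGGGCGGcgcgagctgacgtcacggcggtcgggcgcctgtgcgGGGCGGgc
The motifs, searched on both strands of the 250 bases, were the E-box CACGTG (found in 6.04% of 32536 distinct promoter windows of this length), its variant CACGTT (3.87%), the D-box TTANGTAA (2.03%), the nuclear receptor half-site AGGTCA (4567 of the windows), the xenobiotic response core GCGTG (28.3%), the antioxidant response core TGACNNNGC (10.2%) and the GC-box GGGCGG (33.0%). E-boxes are bound by BMAL1 with its partner CLOCK, and D-boxes by DBP, TEF, HLF and the repressor NFIL3. No window of the 3 pumps held either E-box form or the full D-box. The Abcb1a window held TTATGTA, the D-box without its last base (a motif added after the sequence was read, found in 5.86% of windows and contained in the full D-box), 141 to 135 bases before the start. That start lies 93.0 kb upstream of the start in the GENCODE annotation. The Abcc2 window held AGGTCA 49 to 44 bases and TGACNNNGC 98 to 90 bases before the RefSeq start, in the part that GENCODE counts as exon. The third start of Abcg2 held AGGTCA and 4 GC-boxes, the second start 2 GC-boxes, and the first, which is not shown, AGGTCA at 2 places. Of the other members, the upstream start of Abcc4 held CACGTG. A match of letters is a description of the sequence, and which start sites were used was not measured.

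Over all 6 times, 4 of the 6 pumps differed between the genotypes: Abcg2 was higher in the knockout, and Abcb1a, Abcc2 and Abcb1b were lower. Among all 15646 genes tested 23.3% passed in this comparison, 12.2% higher and 11% lower. The median log2 fold change was −0.33 over the 6 pumps and −0.01 over all genes. The plot of levels by time shows each library.

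**Figure D1:**
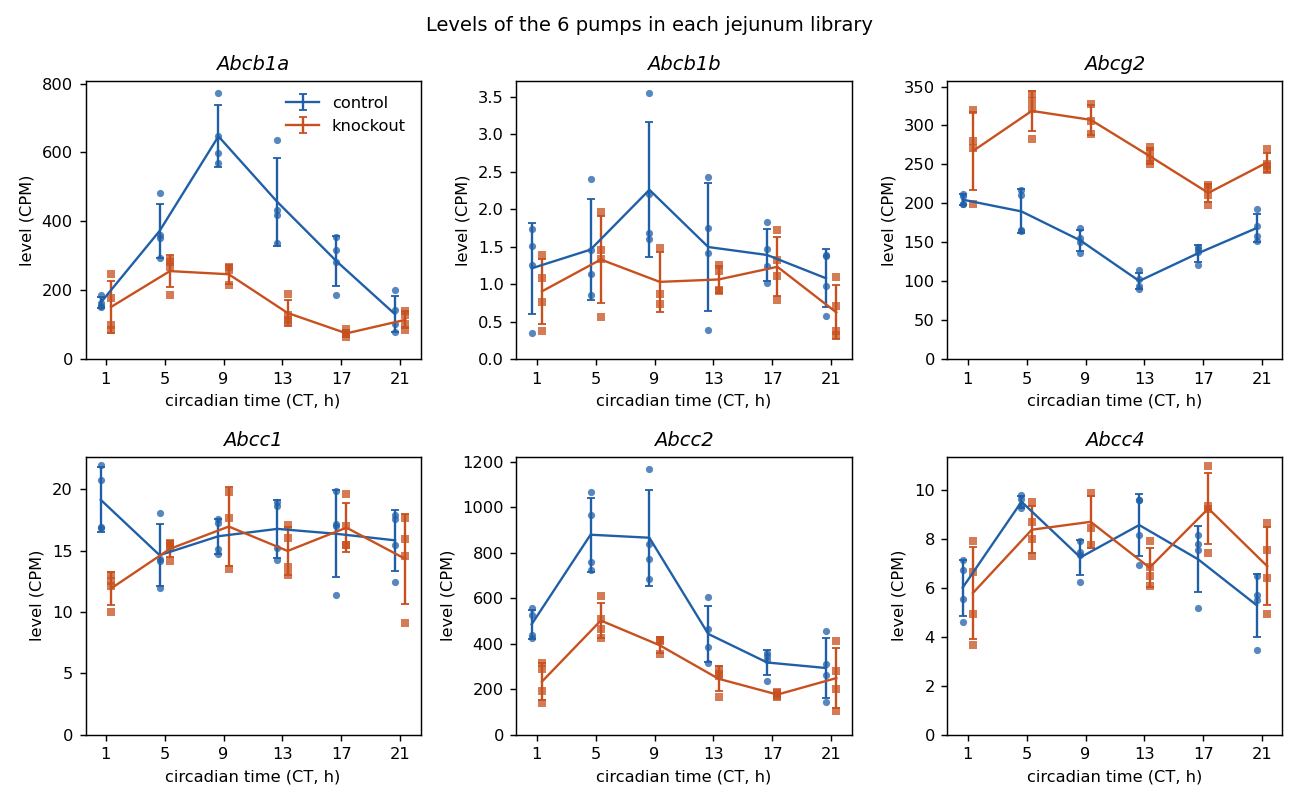
Level of each pump (CPM, linear axis from 0) against circadian time, with 1 point per library (circles control, squares knockout) and lines through group means with bars of 1 SD. Abcb1a in control reaches a mean of 647 CPM at CT9, where knockout has 246, Abcg2 is higher in knockout in all libraries at 5 of 6 times, and the libraries of Abcc4 overlap at every time.

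Abcb1a, the main intestinal P-glycoprotein gene, rose and fell widely over the day in control. Its levels were 154, 163, 185 and 152 CPM at CT1, 294, 351, 361 and 482 CPM at CT5 and 772, 648, 598 and 568 CPM at CT9. They then stood at 433, 337, 636 and 419.7 CPM at CT13, 186, 282, 355 and 318 CPM at CT17 and 78.8, 141, 102 and 199 CPM at CT21. The CT9 libraries were the high end of the control day and the CT21 libraries the low end, with 4.97-fold between the group means. In knockout the levels were 177, 246, 83.4 and 98.8 CPM at CT1, 268, 288, 280.4 and 186 CPM at CT5 and 266, 259 and 214 CPM at CT9. They were 106, 115, 127 and 188 CPM at CT13, 75.1, 71.7, 64.4 and 87.6 CPM at CT17 and 101.1, 85.8, 141 and 128 CPM at CT21. The highest knockout library (288 CPM) was below every control library at CT5, CT9 and CT13, and the knockout range lay wholly below the control range at 4 of 6 times (CT5, CT9, CT13 and CT17). At CT1 and CT21 the ranges overlapped. How often the ranges of all other genes lie apart in this way was not counted, so such counts of times, here and for the pumps below, stand without a background share. In the order of the 12 group means, from control CT9 (647 ± 89.7 CPM, SD) down to knockout CT17 (74.7 ± 9.71), only knockout CT9 and control CT1 were neighbours whose libraries did not overlap.

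The mean log2 fold change of Abcb1a over times was −0.99 (SE 0.11, edgeR adjusted p = 1.5e-09). In time order from CT1 to CT21 it was −0.12, −0.54, −1.39, −1.77, −1.93 and −0.19 (SE 0.25 to 0.28), and it passed at CT9, CT13 and CT17 (edgeR adjusted p = 0.0016, 7.9e-06 and 5.9e-06). The difference was thus 3.82-fold in group means at CT17 and 1.08-fold at CT1. The value at CT1 depended on which knockout libraries were kept, and those that stand apart pulled it in opposite directions. Among them, replicate 2 was the highest knockout CT1 library (246 CPM) and replicate 3 the lowest (83.4 CPM). Without replicate 3 alone the log2 fold change was 0.088. Knockout CT1 replicate 4, which does not stand apart, held 98.8 CPM, below all controls of that time (152 to 185 CPM). Over the 8 alternatives the log2 fold change of Abcb1a at CT1 ranged from −0.77 to 0.073. A genotype effect that differs between times was tested directly and passed for Abcb1a (edgeR interaction adjusted p = 0.0010) and for Abcg2, 2 of the 6 pumps, where 1.18% of all genes passed.

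Abcg2, the gene of the breast cancer resistance protein, moved the other way. In control its levels were 199, 209, 212 and 199 CPM at CT1, 165, 211, 165 and 217 CPM at CT5 and 150.4, 168, 136 and 155 CPM at CT9. They were 94.3, 90.0, 114 and 103 CPM at CT13, 120.2, 138, 142 and 144 CPM at CT17 and 152, 158, 171 and 192 CPM at CT21. Control libraries were lowest at CT13, where all of them lay below every library of any other group. In knockout the levels were 319, 271, 199 and 279.8 CPM at CT1, 321, 340.0, 332 and 282 CPM at CT5 and 328, 289 and 305 CPM at CT9. They were 251, 273, 264 and 256 CPM at CT13, 221, 211, 198 and 224 CPM at CT17 and 247, 242, 251 and 269.8 CPM at CT21. Every knockout library was above every control library of the same time at 5 of 6 times, and at CT1 knockout replicate 3, one of the 5 libraries that stand apart, fell among the controls.

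Averaged over times Abcg2 was higher by 0.79 on the log2 scale (SE 0.05, edgeR adjusted p = 5.3e-18). The difference passed at all 6 times, with log2 fold changes from CT1 to CT21 of 0.38, 0.75, 1.01, 1.38, 0.65 and 0.58 (SE 0.11 to 0.12, edgeR adjusted p from 3.0e-12 to 0.0115). At CT13, where control was lowest, knockout held 2.60-fold the control mean. The call at CT1 ended without the 5 libraries that stand apart (0.41, edgeR adjusted p = 0.173, with 1 knockout library left at CT1), and without control CT1 replicate 1 (adjusted p = 0.0537) or knockout CT1 replicate 1 (0.123). The interaction of genotype and time (edgeR adjusted p = 4.8e-04) ended when offsets for gene length and GC content were added (0.276).

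Abcc2 is the gene of MRP2, which exports glucuronide, sulfate and glutathione conjugates. Averaged over the control times it had the highest level of the pumps, 64.2 CPM per kb beside 62.5 for Abcb1a. On that scale Abcc2 was below Abcb1a at CT9, CT13 and CT17. The control levels of Abcc2 were 556, 438, 524 and 426 CPM at CT1, 726, 761, 966 and 1065 CPM at CT5 and 1169, 839, 772 and 685 CPM at CT9. They were 465, 318, 605 and 387 CPM at CT13, 238, 330.4, 358 and 345 CPM at CT17 and 143, 311, 264 and 456 CPM at CT21. The high times were CT5 and CT9, and control CT9 and knockout CT5 were the only neighbours in the order of the 12 means whose libraries did not overlap. In knockout the levels were 191, 315, 142 and 287 CPM at CT1, 609, 508, 427 and 464 CPM at CT5 and 411, 416 and 353 CPM at CT9. They were 167, 269, 259 and 290.2 CPM at CT13, 172, 188, 182 and 165 CPM at CT17 and 412, 199.5, 280.3 and 105 CPM at CT21. All knockout libraries lay below all control libraries at 5 of 6 times, the exception being CT21, where both groups were widely spread.

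The mean log2 fold change of Abcc2 was −0.82 (SE 0.12, edgeR adjusted p = 7.5e-07). From CT1 to CT21 the single times gave −1.06, −0.81, −1.14, −0.85, −0.85 and −0.24 (SE 0.28 to 0.31), of which CT1 and CT9 passed (edgeR adjusted p = 0.0085 and 0.0257). The calls at single times were unsteady. Without the 5 libraries that stand apart CT1 no longer passed (−0.80, edgeR adjusted p = 0.365), while CT5 (0.0398), CT13 (0.0109) and CT17 (0.0175) did. With offsets for gene length and GC content CT5 (0.0311), CT13 (0.0126) and CT17 (0.0275) passed too. CT9 did not pass without the filter on low counts (0.0823), nor without control CT9 replicate 1 or 2 or any of the 3 knockout CT9 libraries (adjusted p 0.0503 to 0.167). No difference between times in the genotype effect was detected for Abcc2 (edgeR interaction adjusted p = 0.758), nor for Abcc1, Abcc4 or Abcb1b (0.355, 0.433 and 0.914).

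**Figure D2:**
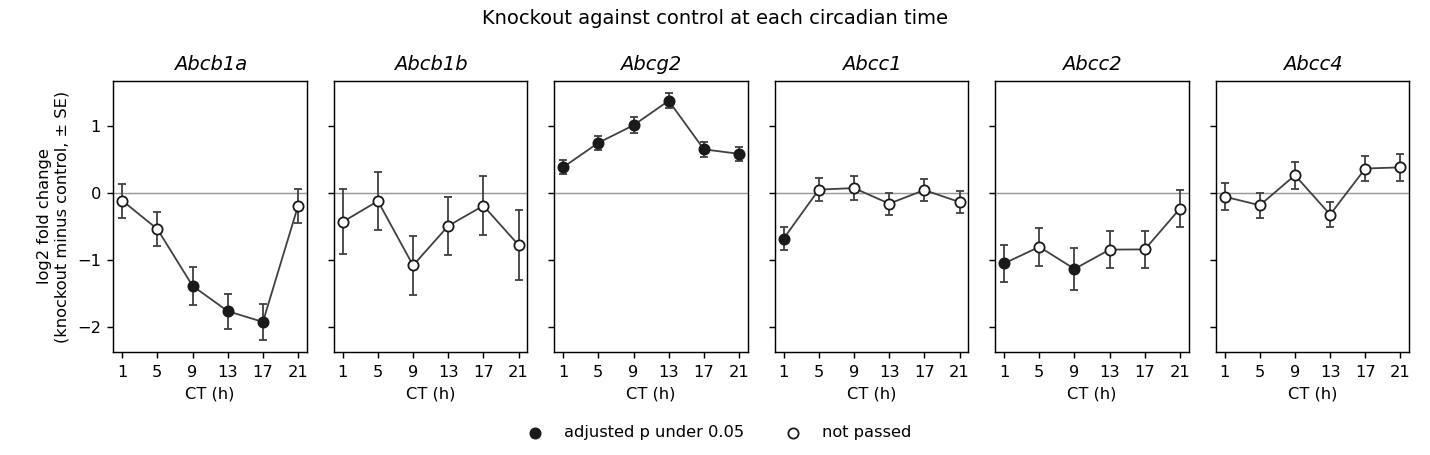
Log2 fold change (knockout minus control) of each pump against circadian time, with bars of 1 SE from the fit and filled points where the edgeR adjusted p is under 0.05. Abcb1a falls from −0.12 at CT1 to −1.93 at CT17, Abcg2 is above 0 at all 6 times with its peak of 1.38 at CT13, Abcc1 passes at CT1 alone, and Abcc4, between −0.32 and 0.38, passes at no time.

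Abcb1b, the second P-glycoprotein gene, was near the limit of detection. Its counts were 10, 2, 7 and 6 at CT1, 6, 5, 13 and 8 at CT5 and 21, 13, 10 and 10 at CT9 in control, and 14, 8, 10 and 2 at CT13, 11, 5, 7 and 6 at CT17 and 6, 3, 5 and 7 at CT21. In knockout the counts were 4, 6, 5 and 2 at CT1, 11, 8, 3 and 7 at CT5, 5, 10 and 4 at CT9, 8, 7, 5 and 5 at CT13, 10, 5, 6 and 7 at CT17 and 2, 2, 6 and 3 at CT21. Scaled levels averaged 1.48 CPM in control and 1.03 CPM in knockout, and the ranges were apart only at CT9 (1.597 to 3.54 CPM against 0.739 to 1.48). The mean log2 fold change of −0.52 (SE 0.19, edgeR adjusted p = 0.0406) did not pass with limma-voom (0.0805), without the filter on low counts (0.091) or with offsets for length and GC content (0.0805), and lost its call when any 1 of 17 libraries was left out (adjusted p up to 0.0723). It passed at no single time. Abcb1b also shares sequence with Abcb1a: of the 5459 distinct stretches of 50 bases in Abcb1a transcripts 16.3% occur in those of Abcb1b, and Abcb1b held a median of 0.505% as many counts as Abcb1a. The sources used here do not say how reads that match both were treated, so the value of Abcb1b is uncertain.

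Abcc1, the gene of MRP1, did not pass over all times (log2 fold change −0.14, SE 0.07, 95% interval −0.28 to 0.003, edgeR adjusted p = 0.152). It averaged 16.5 CPM in control and 15.03 CPM in knockout, with single libraries from 11.4 to 22.0 CPM and from 9.14 to 19.7 CPM. The exception was CT1, where control libraries held 20.8, 16.9, 22.0 and 16.9 CPM and knockout libraries 10.03, 12.1, 13.0 and 12.6 CPM. These ranges did not overlap, and the difference passed (−0.68, SE 0.17, edgeR adjusted p = 0.0048). It rested on the time point with 3 of the 5 libraries that stand apart: without them the value was −0.65 (edgeR adjusted p = 0.253), and with offsets for gene length and GC content it was −0.36 (0.0814). The knockout CT1 library that does not stand apart (12.6 CPM) was also below all 4 controls. Abcc1 has the longest exon sequence of the 6 pumps (15.1 kb), and the part of gene length in this difference was not tested beyond these values.

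Abcc4, the gene of MRP4, gave overlapping ranges at all 6 times. Its group means ran from 5.28 CPM at CT21 to 9.52 CPM at CT5 in control and from 5.79 CPM at CT1 to 9.24 CPM at CT17 in knockout. The mean log2 fold change was 0.07 (SE 0.08, edgeR adjusted p = 0.548), and its 95% interval, −0.09 to 0.24, holds changes of up to 1.18-fold higher. No single time passed. The control libraries at CT5 were the tightest set (9.24, 9.63, 9.39 and 9.80 CPM), and knockout at CT17 held the single highest library (10.98 CPM, beside 7.40, 9.36 and 9.22).

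By time, the members that passed were Abcg2, Abcc1 and Abcc2 at CT1 (3 of 6, with 20.7% of all genes), Abcg2 at CT5 (1, with 0.837%), Abcg2, Abcb1a and Abcc2 at CT9 (3, with 3.6%), Abcg2 and Abcb1a at CT13 (2, with 3.39%), the same pair at CT17 (2, with 2.09%) and Abcg2 at CT21 (1, with 1.43%). At CT1 a share of 20.7% stands beside the members' count. Without the 5 libraries that stand apart 0 pumps passed there with edgeR (4 had an unadjusted p under 0.05, Abcb1a, Abcg2, Abcc1 and Abcc2, and no other tool was run on that subset), and 40 genes in all did.

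The daily patterns were described by a 24-h cosine fitted to log2 levels. A rhythm was called in control for 3 of the 6 pumps, Abcb1a, Abcg2 and Abcc2 (20.5% of all genes), and in knockout for the same 3 (14.6%). The rhythm differed between the genotypes for 2, Abcb1a and Abcg2 (1.5% of all genes). The test of the difference covers peak time together with amplitude, the height of the fitted peak above the curve's mean.

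Abcb1a peaked at CT10.1 (SE 0.35 h) in control with an amplitude of 1.13 (SE 0.11, edgeR adjusted p = 1.6e-10), and at CT6.20 (SE 0.49 h) in knockout with an amplitude of 0.84 (SE 0.11, 5.3e-06). The fitted peak was 3.91 h earlier in knockout (SE 0.60 h), and the rhythms differed (edgeR adjusted p = 1.1e-04). Abcg2 peaked at CT1.83 (SE 0.40 h) in control and at CT6.05 (SE 0.74 h) in knockout, 4.22 h later (SE 0.84 h). Its amplitude was 0.45 (SE 0.05, 3.4e-09) in control and 0.25 (SE 0.05, 0.0020) in knockout, and the rhythms differed (edgeR adjusted p = 5.7e-04). With offsets for gene length and GC content the knockout peak of Abcg2 was at CT3.18, and the difference did not pass (0.291). Without the 5 libraries that stand apart it stayed at CT5.88 and passed (1.2e-04).

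Abcc2 peaked at CT6.88 (SE 0.52 h, amplitude 0.87, SE 0.12) in control and at CT6.14 (SE 0.75 h, amplitude 0.64, SE 0.12) in knockout. No difference between its rhythms was detected (edgeR adjusted p = 0.81), and the peak shift of −0.74 h had an SE of 0.91 h. The 3 fitted peaks were therefore spread from CT1.83 to CT10.1 in control and lay between CT6.05 and CT6.20 in knockout. The knockout peaks had SEs of 0.49 to 0.75 h, wider than the gaps between them. With offsets for gene length and GC content the knockout peak of Abcg2 was at CT3.18. Without the 5 libraries that stand apart the knockout peaks were less close, at CT6.43 for Abcb1a, CT5.88 for Abcg2 and CT4.69 for Abcc2. Over the 6 group means Pearson's r between the log2 levels of Abcb1a and Abcg2 was −0.47 in control and 0.99 in knockout, between Abcb1a and Abcc2 it was 0.69 and 0.96, and between Abcg2 and Abcc2 0.26 and 0.95. These values describe 6 means from the same libraries and are not independent points.

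**Figure D3:**
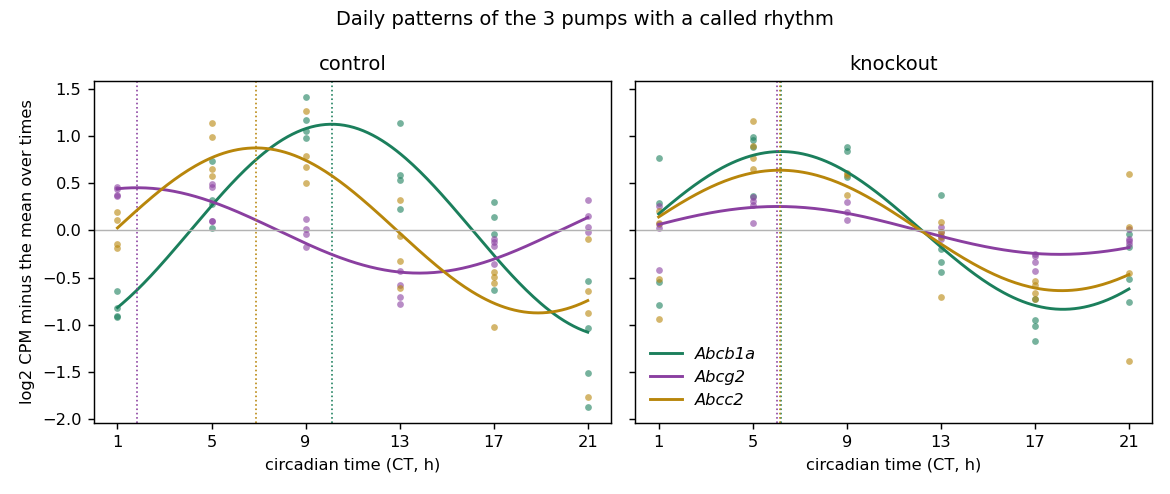
Log2 CPM minus its mean over times against circadian time for the 3 pumps with a called rhythm, with 1 point per library, fitted 24-h curves and dotted lines at the fitted peaks. In control the peaks stand at CT1.83 (Abcg2), CT6.88 (Abcc2) and CT10.1 (Abcb1a). In knockout all 3 stand between CT6.05 and CT6.20, with SEs of 0.49 to 0.75 h.

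For the other 3 pumps no rhythm was called. Abcc4 came close in control (amplitude 0.30, SE 0.10, peak CT9.25, edgeR adjusted p = 0.0519). It passed with DESeq2 (0.0385), with offsets for length and GC content (0.0437) and when any 1 of 8 libraries was left out (adjusted p down to 0.0242). It did not pass under the other alternatives (adjusted p up to 0.0996), nor when any other single library was left out (up to 0.150). In knockout its amplitude was 0.16 (SE 0.10, adjusted p = 0.44). Abcb1b had amplitudes of 0.44 (SE 0.17) in control and 0.29 (SE 0.20) in knockout (edgeR adjusted p = 0.14 and 0.526), and Abcc1 had 0.05 (SE 0.07) and 0.17 (SE 0.07) (0.847 and 0.207).

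The make-up of the pump transcripts shifted with these changes. In control Abcb1a took a mean of 26.2% ± 1.87 (SD, n = 4) of the summed CPM per kb of the 6 pumps at CT1 and 55.3% ± 1.51 at CT13, while Abcg2 went from 22.1% ± 1.70 to 8.44% ± 1.34. In knockout Abcb1a took at most 34.1% ± 1.42 (CT9, n = 3) and at least 21.5% ± 2.14 (CT17), and Abcg2 took 26.7% ± 1.69 at CT5 and 41.4% ± 1.15 at CT17. Abcc2 held 34.5% to 52.3% in the control group means and 30.5% to 40.1% in the knockout ones. The summed level was highest at CT9 in control (241 ± 41.4 CPM per kb) and lowest at CT17 in knockout (63.2 ± 2.29). These shares follow from the same values as the tests above and were not tested again.

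**Figure D4:**
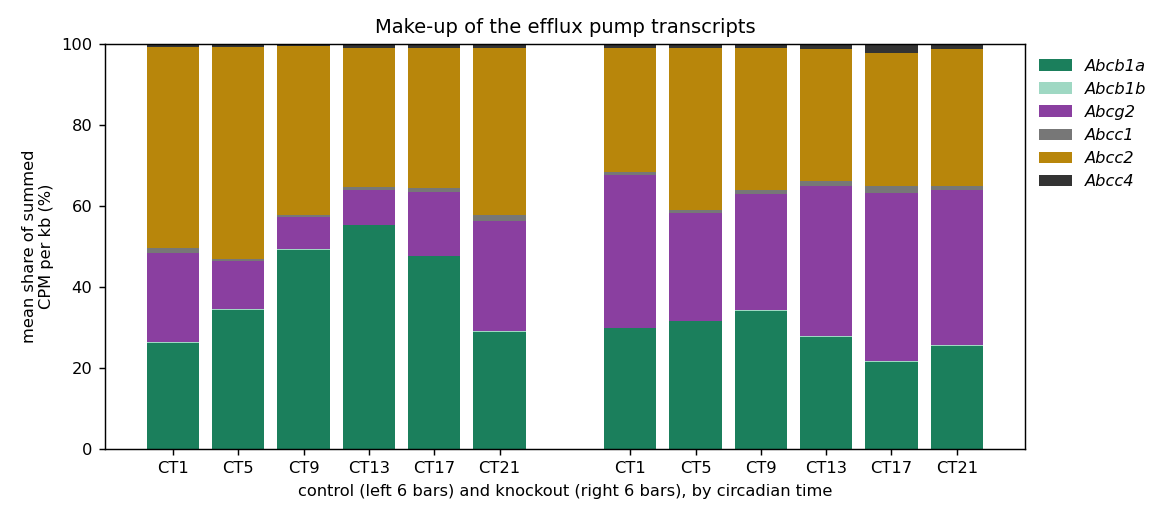
Mean share of each pump (percent) in the summed CPM per kb of the 6 pumps, for the 6 control groups on the left and the 6 knockout groups on the right. Abcb1a takes 55.3% in control CT13 and 21.5% in knockout CT17, and Abcg2 takes 8.44% and 41.4% there, while Abcb1b, Abcc1 and Abcc4 are thin bands.

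The genes with the most similar pattern were taken as the 3 with the highest Pearson's r over the 12 group means of log2 CPM. For Abcb1a these were Myo1h, a myosin at about 1 CPM (0.94), Me2, the mitochondrial malic enzyme (0.94), and Gcnt2, a glycan-branching enzyme (0.93). For Abcg2 they were Sprr2a2, a small proline-rich barrier protein that can share reads with near-identical copies (0.98), Stom, the membrane protein stomatin (0.98), and the lipid phosphatase Plpp1 (0.97). Abcc2 was closest to Nr3c2, the mineralocorticoid receptor (0.97), Gcnt2 (0.96) and 2900026A02Rik (0.95). The leading genes were Abl1, Prkca and Samsn1 for Abcb1b (0.93, 0.93 and 0.90), Tiam1, Otud4 and Mphosph9 for Abcc1 (0.92, 0.91 and 0.91) and Mllt6, Limch1 and Stard13 for Abcc4 (0.91, 0.91 and 0.90). These are the highest of 15646 values each and carry no test.

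Other genes of drug handling are read against the 23.3% of all genes that passed over all times. Of 7 other efflux carriers tested (11 listed) 1 was higher over all times and 2 were lower: Abcc3, a basolateral exporter of bile acids and glucuronides, was at 0.52 (SE 0.11), Abca1, which exports cholesterol, at −1.10 (SE 0.15), and Abcg1, a sterol exporter, at −0.59 (SE 0.14). Of 16 drug uptake carriers 2 were higher and 2 lower, with the peptide and beta-lactam carrier Slc15a1 at −0.45 (SE 0.07) and the carrier Slc22a18 at 0.45 (SE 0.10). The median log2 fold changes of these lists were −0.09 and 0.03, beside −0.01 for all genes. Among the xenobiotic sensors, which induce pumps and enzymes when a drug or toxin binds, and their partners, 14 genes, 1 was higher (the bile acid receptor Nr1h4, 0.37, SE 0.05) and 1 was lower (the vitamin D receptor Vdr, −0.15, SE 0.04). The pregnane X receptor Nr1i2 (−0.05, SE 0.05), the dioxin receptor Ahr (−0.09, SE 0.10) and Nfe2l2 (NRF2; 0.05, SE 0.05) did not pass (edgeR adjusted p = 0.498, 0.536 and 0.477). Of 18 of their targets 4 were higher and 3 lower, among them Cyp2c55 at 1.88 (SE 0.18), Gstm1 at 0.75 (SE 0.18) and Gclc, the catalytic subunit of glutathione synthesis, at −0.42 (SE 0.09).

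Transcripts of the D-box factors were themselves rhythmic, and their values stand beside those of the pumps without a test of any link. Of 10 PAR bZIP factors and clock repressors 3 were higher over all times and 4 lower, beside 23.3% of all genes that passed. The rhythm differed between genotypes for 7, beside 1.5% of all genes. The activators Dbp, Tef and Hlf peaked at CT9.57, CT11.5 and CT12.3 in control with amplitudes of 3.11, 1.58 and 1.89, and at CT9.77, CT11.7 and CT12.4 in knockout with amplitudes of 1.65, 0.58 and 0.97. The repressor Nfil3 was higher in knockout over all times (0.79, SE 0.10, edgeR adjusted p = 1.8e-08). From CT1 to CT21 its control means were 35.2, 6.79, 4.79, 5.04, 29.0 and 35.4 CPM (SD 1.22 to 7.59, n = 4 each). Its knockout means were 31.6, 31.0, 20.6, 12.5, 24.6 and 25.9 CPM (SD 3.33 to 8.06, n = 4 but 3 at CT9). The knockout mean was above the control mean at CT5, CT9 and CT13 and below it at CT1, CT17 and CT21. Of 8 genes of apical scaffolding and trafficking 2 were higher over all times and 2 lower, beside the same 23.3% of all genes. Those that passed included the scaffold Pdzk1, which binds apical transporters (0.40, SE 0.05), the motor Myo5b (0.68, SE 0.04) and the scaffold Slc9a3r1 (−0.32, SE 0.09).

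Markers of other cells are also read against the 23.3% of all genes that passed over all times. All 10 T cell and intraepithelial lymphocyte genes were lower in knockout, and their summed level was 165 to 470.3 CPM in control libraries and 90.6 to 184 CPM in knockout libraries, with Cd8b1 at 0 in 3 libraries and no other gene of the list at 0 in any. Of 7 B and plasma cell genes 6 were lower (sums of 514 to 1082 and 263 to 1140 CPM), and the genes at 0 in some libraries included Pax5 (12 libraries), Ms4a1 and Mzb1 (1 each). Of 8 genes of endothelium, another cell type that carries P-glycoprotein, 2 were lower (sums of 164 to 277 and 146 to 244 CPM). Of 8 crypt stem and cycling genes 1 was lower, and of 6 fibroblast genes 1 was lower. Of 7 myeloid and mast cell genes tested 1 was higher and 2 were lower. Of 7 smooth muscle genes, 6 enteric neuron and glia genes and 2 pancreatic acinar genes tested 0 passed. Of 6 genes of the proximal small intestine 1 was higher and 1 was lower. Of 3 ileal genes tested 2 were lower, Cubn (−1.24, SE 0.14) and Muc3a (−0.24, SE 0.09), with sums of 315 to 1056 and 132 to 417 CPM. The most defining ileal genes, Fabp6 (at 0 in 9 libraries and too low to test) and Slc10a2 (1.26 CPM in control and 0.893 in knockout), were near 0 in both genotypes. The part of these cells, and of the position along the intestine, in the results on the pumps was not tested. In tissue RNA, fewer cells that express a pump and less RNA per cell cannot be told apart.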

How the data were processed

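The values analysed are unscaled read counts per gene as the authors deposited them, with a column for each library. Jejunum RNA was isolated with a NucleoSpin kit and sequenced as TruSeq stranded mRNA libraries, per the labels. The submitters' processing notes name STAR 2.7.5c, featureCounts 1.4.6 and DESeq2 1.22.0, the helper tools SAMtools 1.3.1, Trimmomatic 0.39 and FastQC 0.11.5, and the mm10 build. Tool settings, including strand and multi-mapping reads, are not given.

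Symbols came from GENCODE vM21 (mm10), in which 54349 gene IDs matched with their version, 792 matched once the version was ignored and 260 had no match. Genotype and time labels set the groups. Replicate numbers follow accession order and pair nothing. Columns matched 47 of 48 described libraries. With edgeR 4.0.16 in R 4.3.3, filterByExpr by group (at least 10 counts, and 15 in total) kept 15646 genes, and TMM-scaled quasi-likelihood models covered all libraries. The first had a mean per group (35 residual degrees of freedom), and the second an intercept, cosine and sine of 24-h period per genotype (41). Benjamini-Hochberg adjustment ran over all genes tested, with a threshold of 0.05. Log2 fold changes are knockout minus control, and CPM uses TMM-scaled totals. A count of 0 would allow up to 3 counts, 0.439 to 0.703 CPM by library, for counting error only. The 95% intervals use 35 degrees of freedom. No pair of libraries matched within sampling noise. The fits were tested on simulated data.

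Alternatives were upper quartile and RLE scaling, DESeq2 1.42.0, limma-voom (limma 3.58.1), no filter, leaving out the 5 libraries that stand apart, offsets for gene length and GC content, a term for the 2 ranges of library numbers in the labels, the sum of Abcb1a and Abcb1b as a level, and leaving out each library.

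The members and the 18 gene lists (163 genes) were chosen with earlier results of these data known. Besides the members, the genes named are the 3 most similar to each member over the 12 group means, of each list at most the 3 that passed with the largest absolute log2 fold change, and genes set beside a result (Nr1i2, Ahr, Nfe2l2, Hlf, Nfil3, Slc10a2, Fabp6 and Arntl, with markers listed at 0), which were picked after their values were seen. Promoter windows are from RefSeq, GRCm38.p6. The value of 1 marker gene is not reported here.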

Additional observations from a re-analysis of the deposited data

Results flagged for a closer look

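Tests of a difference between groups passed for 2 pumps. The genotype effect differed between times for Abcb1a (edgeR interaction adjusted p = 0.0010), from −0.12 at CT1 to −1.93 at CT17 on the log2 scale, and for Abcg2 (4.8e-04), from 0.38 at CT1 to 1.38 at CT13. The value of Abcb1a at CT1 ranged from −0.77 to 0.073 over the 8 alternatives. The 24-h rhythm differed between genotypes for Abcb1a (edgeR adjusted p = 1.1e-04), with a fitted peak at CT10.1 in control and CT6.20 in knockout, and for Abcg2 (5.7e-04), with a peak at CT1.83 and CT6.05. The values of Abcg2 did not pass with offsets for gene length and GC content, whereas those of Abcb1a passed under all 8 alternatives. Among 66 sets of 4 libraries (6 pumps in 11 groups), 0 held a library whose gap to its nearest neighbour was past the 95% limit of Dixon's test, which chance alone passes in about 1 of 20.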

How the results depend on the processing

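The mean genotype effects of Abcb1a, Abcg2 and Abcc2 kept their direction and their calls under all 8 alternatives and on leaving out each of the 47 libraries, with log2 fold changes of −1.14 to −0.93, 0.78 to 0.89 and −0.84 to −0.76 over the alternatives. The number of pumps called at CT1 went from 3 to 0 without the 5 libraries that stand apart, which leaves 1 knockout library there, assumed to vary like the other groups. At CT5 it went from 1 to 2 without these libraries and to 2 with offsets for gene length and GC content, Abcc2 being the pump gained. With the same offsets the number with a genotype effect that differs between times went from 2 to 1 and the number with a rhythm that differs went from 2 to 1, Abcg2 being lost. The cause was not tested.

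Directions that turned were all of uncalled values. Abcb1a at CT1 was 0.073 with the offsets, and Abcc4 at CT1 was 0.11 with the offsets and 0.11 without the 5 libraries. On leaving out single libraries the ranges were −0.46 to 0.088 for Abcb1a and −0.25 to 0.10 for Abcc4 at CT1, −0.39 to 0.20 for Abcb1b and −0.054 to 0.15 for Abcc1 at CT5, −0.041 to 0.22 for Abcc1 at CT9, and −0.10 to 0.15 for Abcc1 at CT17. At CT21 they were −0.37 to 0.10 for Abcb1a, −0.24 to 0.025 for Abcc1 and −0.58 to 0.073 for Abcc2. Of 526 tests of single pumps under the alternatives 505 kept their side of the threshold and, where they have one, their direction, and so did 3055 of 3102 on leaving out single libraries. The number of pumps called over all times was 3 in place of 4 with limma-voom, without the filter and with the offsets.

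The number of all genes called, against which the pumps are read, moved more: at CT1 from 3233 to 40 without the 5 libraries, 2097 without the filter and, on leaving out 1 library, 1319 (knockout CT1 replicate 1) or 1530 (control CT1 replicate 1). Without the 5 libraries it went from 131 to 282 at CT5, from 563 to 1029 at CT9, from 530 to 1154 at CT13 and from 327 to 835 at CT17. The interaction went from 185 to 392 with DESeq2, 681 without knockout CT21 replicate 4 and 366 without knockout CT1 replicate 4. Without the filter CT13 gave 349 and CT17 gave 196, and with the offsets CT13 gave 798, CT17 gave 523 and the interaction 313. Leaving out 1 library of the same time also moved these counts by over 1.5 times. CT5 gave 69 or 84 without control replicate 1 or 4 and 84, 72 or 75 without knockout replicate 1, 2 or 4. CT9 gave 299 without control replicate 1 and 321 or 258 without knockout replicate 3 or 4. CT13 gave 327 without control replicate 2, and CT17 gave 206 without control replicate 3 and 191, 197 or 198 without knockout replicate 2, 3 or 4. CT21 went from 224 to 364, 143 or 129 without control replicate 1, 2 or 3, and the knockout rhythm from 2277 to 3600 without knockout CT21 replicate 1. Depth limits Abcb1b most, with at most 21 counts in a library. No paired analysis was possible because the labels carry no replicate numbers.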
